A study of Arabidopsis thaliana with 4 samples.

Results

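The RPP4/RPP5/SNC1 cluster is a row of 8 genes for intracellular immune receptors on chromosome 4 of Arabidopsis thaliana. In chromosome order they are RPP4 (AT4G16860), SNC1 (AT4G16890), AT4G16900, AT4G16920, AT4G16940, RPP5 (AT4G16950), AT4G16960 and RLM3 (AT4G16990). The genes were taken by identifier from a gene count table of 32833 genes, and all 8 were found in it and passed the filter on low counts. They had been picked out with the difference between the groups already known. That difference is therefore described below without p-values for single members. Where members are said to pass a threshold, this is a description and not support for the difference.

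Whole seedlings of the ecotype Col-0, 7 days old, were the material. Messenger RNA was sequenced with a strand-specific kit in 2 libraries labelled wt (wild type) and 2 labelled cml39 (mutant of CML39, which codes for a calcium sensor related to calmodulin), all from plants grown under long days. The labels give neither the mutant allele nor whether the samples of a group were grown apart, so the p-values given below measure only the spread between these samples. CML39 had 0 counts in both wt libraries, and 45 and 21 counts in cml39 1 and cml39 2, which goes against a loss of the transcript under the mutant label. Every direction given below is therefore that of the libraries labelled cml39 over the libraries labelled wt.

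Receptors of this kind sit inside the cell, with a TIR domain at the front, a nucleotide-binding NB-ARC domain in the middle and leucine-rich repeats (LRR) at the end. On sensing a pathogen effector, the TIR domain makes small nucleotide signals that act through EDS1 with PAD4 or SAG101 and through helper receptors, which leads to salicylic acid production and local cell death. Too much of these receptors is known to stunt Arabidopsis plants, and SNC1 became known through a gain-of-function allele with constant defence, so their transcripts, their proteins and the chromatin of the cluster are under many layers of control.

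The cluster spans 77104 bases of the reference assembly TAIR10.1, from chr4:9488466-9565569, with 7 genes on the minus strand and RLM3 alone on the plus strand. RPP4 lies at chr4:9488466-9495837, SNC1 at chr4:9500271-9505972, RPP5 at chr4:9538233-9544755 and RLM3 at chr4:9558571-9565569. AT4G16900 lies at chr4:9511859-9516688, AT4G16920 at chr4:9517950-9525800, AT4G16940 at chr4:9531373-9537918 and AT4G16960 at chr4:9547402-9551028. The reference describes RLM3 as a TIR-NBS class protein and the other 7 as TIR-NBS-LRR class proteins. The submitters' processing notes name the build TAIR10, and the gene identifiers match.

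Promoters were read from TAIR10.1 by gene identifier, from 250 bases before to 50 after each annotated start, and are shown 5′ to 3′ on the coding strand for 5 of the 8 genes. They are the 3 receptor genes with the largest difference towards the cml39 libraries, the 1 gene that was lower there, and AT4G16960, which shares a stretch with RPP4. All are from the minus strand, at chr4:9495788-9496087 (RPP4), chr4:9505923-9506222 (SNC1), chr4:9544706-9545005 (RPP5), chr4:9525751-9526050 (AT4G16920) and chr4:9550979-9551278 (AT4G16960). Capitals mark each base within a stretch of at least 16 bases that also stands, letter for letter, in the window of another member. Overlapping stretches run together, as those shared with AT4G16960 and with AT4G16920 do in RPP4.
RPP4: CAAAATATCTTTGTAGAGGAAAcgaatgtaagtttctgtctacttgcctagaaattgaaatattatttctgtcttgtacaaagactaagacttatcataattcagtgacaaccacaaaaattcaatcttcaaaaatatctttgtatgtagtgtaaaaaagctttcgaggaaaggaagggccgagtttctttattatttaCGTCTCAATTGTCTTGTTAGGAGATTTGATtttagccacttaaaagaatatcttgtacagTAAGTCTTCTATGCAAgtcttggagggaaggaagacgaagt
SNC1: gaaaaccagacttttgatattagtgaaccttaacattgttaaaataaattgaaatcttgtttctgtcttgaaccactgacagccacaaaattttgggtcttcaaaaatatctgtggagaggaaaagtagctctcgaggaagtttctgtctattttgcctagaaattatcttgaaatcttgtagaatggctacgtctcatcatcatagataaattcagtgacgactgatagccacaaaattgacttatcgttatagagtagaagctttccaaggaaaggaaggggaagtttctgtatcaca
RPP5: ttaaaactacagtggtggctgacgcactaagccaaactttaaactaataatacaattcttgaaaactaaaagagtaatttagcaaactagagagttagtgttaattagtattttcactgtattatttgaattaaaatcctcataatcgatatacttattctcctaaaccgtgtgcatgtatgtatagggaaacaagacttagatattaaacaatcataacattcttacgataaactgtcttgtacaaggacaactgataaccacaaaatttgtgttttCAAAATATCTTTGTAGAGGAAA
AT4G16920: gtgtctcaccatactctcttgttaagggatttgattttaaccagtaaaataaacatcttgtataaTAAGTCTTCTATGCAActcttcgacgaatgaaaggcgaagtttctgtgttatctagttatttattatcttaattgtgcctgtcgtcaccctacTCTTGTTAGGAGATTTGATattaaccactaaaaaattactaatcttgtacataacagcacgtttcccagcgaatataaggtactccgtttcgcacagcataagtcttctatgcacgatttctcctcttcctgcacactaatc
AT4G16960: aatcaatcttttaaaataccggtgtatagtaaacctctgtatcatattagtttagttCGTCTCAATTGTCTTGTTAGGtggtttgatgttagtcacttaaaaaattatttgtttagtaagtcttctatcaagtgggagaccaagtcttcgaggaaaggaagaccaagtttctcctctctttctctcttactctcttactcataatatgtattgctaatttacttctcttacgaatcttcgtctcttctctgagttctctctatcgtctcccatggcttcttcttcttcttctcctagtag

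Of the 28 pairs of members, 3 shared such a stretch, and RPP4 was in all 3 of these pairs. The longest stretch that RPP4 shared was 22 bases with RPP5, 21 with AT4G16960 and 19 with AT4G16920, whereas the median over pairs was 9. Each of these 3 longest stretches was found on either strand in 2 of 27443 nuclear gene promoters, namely those of the pair itself. RPP4 and AT4G16920 shared a further stretch of 16 bases, which was not searched for in the other promoters. The stretch of RPP4 and RPP5 begins 250 bases before the start of RPP4 and 28 after that of RPP5. It thus touches an edge of both windows, so its full length was not measured. In RPP4 it lies within the annotated gene AT4G16880, and in RPP5 after the gene start. SNC1 shared no stretch of that length with any member, and its longest was 15 bases, with RPP4. The RPP4 window runs into the neighbouring gene AT4G16880, that of RPP5 into AT4G16957, that of AT4G16920 into AT4G06440, which had 0 counts in all 4 libraries, and that of AT4G16960 into AT4G16970. The length of 16 bases was chosen after the sequences were seen.

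WRKY factors, a family of defence regulators, bind the W-box core, whose letters TTGAC were searched on both strands (GTCAA on the other). The core stood in 1 of the 8 windows, that of SNC1, where it starts 12 bases before the gene start. That is 12.5% of the members, beside 50.5% of 27443 promoters of nuclear protein-coding genes in the count table. A pair of cores within 30 bases was found in 0 of the 8 and in 5.89% of all. A match or its lack describes these letters in this window and nothing more.

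Transcripts of RPP4, SNC1, RPP5 and RLM3 were more abundant in the libraries labelled cml39, and 1 member, AT4G16920, was far lower. The libraries held 19331639 to 24101882 counts, and values are given as normalised read counts in CPM after scaling by the trimmed mean of M values (TMM). With n = 2 libraries per group, the SD of a group rests on 2 values. In whole seedlings, fewer cells of a type and less RNA per cell cannot be told apart.

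RPP4, a receptor gene for resistance to downy mildew, stood at 68.4 CPM in wt 1 and 81.2 in wt 2, and at 262 in cml39 1 and 217 in cml39 2. Both cml39 libraries lay well above both wt libraries, and the wt libraries differed from each other by less than the groups did. The fitted log2 difference was 1.68 ± 0.14 (SE), or 3.21-fold, the largest difference in that direction among the members. The spread within a group was small beside it, with a log2 ratio of -0.25 within wt and of 0.27 within cml39.

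SNC1, named for its gain-of-function allele in a screen on the salicylic acid receptor mutant npr1, stood at 114 and 111 CPM in wt and at 292 and 289 CPM in cml39. The libraries of a group were almost level, with log2 ratios of 0.03 and 0.01 within wt and within cml39. The log2 difference was 1.37 ± 0.10 (SE), or 2.58-fold. SNC1 thus had the tightest replicates of the cluster in both groups.

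RPP5 carries the name of a downy mildew receptor gene first described in the accession Landsberg. It stood at 138 and 158 CPM in wt and at 319 and 324 CPM in cml39, with no overlap. The log2 difference was 1.12 ± 0.11 (SE), or 2.18-fold. RLM3, a gene for resistance to the fungus Leptosphaeria maculans, stood at 305 and 319 CPM in wt and at 466 and 497 CPM in cml39. Its log2 difference was 0.62 ± 0.10 (SE), or 1.54-fold, again without overlap but smaller than that of RPP4, SNC1 and RPP5.

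AT4G16920 went the other way. It had 124 and 139 counts in wt 1 and wt 2, and 15 and 16 counts in cml39 1 and cml39 2. The exact Poisson 95% intervals were 103 to 148 and 117 to 164 counts in wt, and 8.395 to 24.7 and 9.15 to 26.0 in cml39. The intervals of the groups did not overlap, in raw counts that are not scaled for library size. Intervals cover counting error only. In CPM the gene stood at 4.65 and 6.65 in wt and at 0.755 and 0.875 in cml39, a log2 difference of -2.78 ± 0.34 (SE), or 6.88-fold lower.

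The other 3 members had smaller or less certain differences. AT4G16900 stood at 21.5 and 23.5 CPM in wt and at 29.0 and 31.4 CPM in cml39, with a log2 difference of 0.43 ± 0.12 (SE). AT4G16960 stood at 4.13 and 5.31 CPM in wt and at 7.90 and 6.46 CPM in cml39, with a log2 difference of 0.61 ± 0.23. In AT4G16900 the gap between the groups was wider than the spread within either, whereas in AT4G16960 it was about as wide as the spread within wt.

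AT4G16940 was the least certain member. It had 19 and 40 counts in wt, and 48 and 46 in cml39. The Poisson interval of wt 2, 28.6 to 54.5 counts, overlapped those of cml39 1 (35.4 to 63.6) and cml39 2 (33.7 to 61.4), so at this depth the difference rests on wt 1. The log2 difference of 0.94 ± 0.48 fell to 0.37 without wt 1 and was 1.78 without wt 2.

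**Figure D1:**
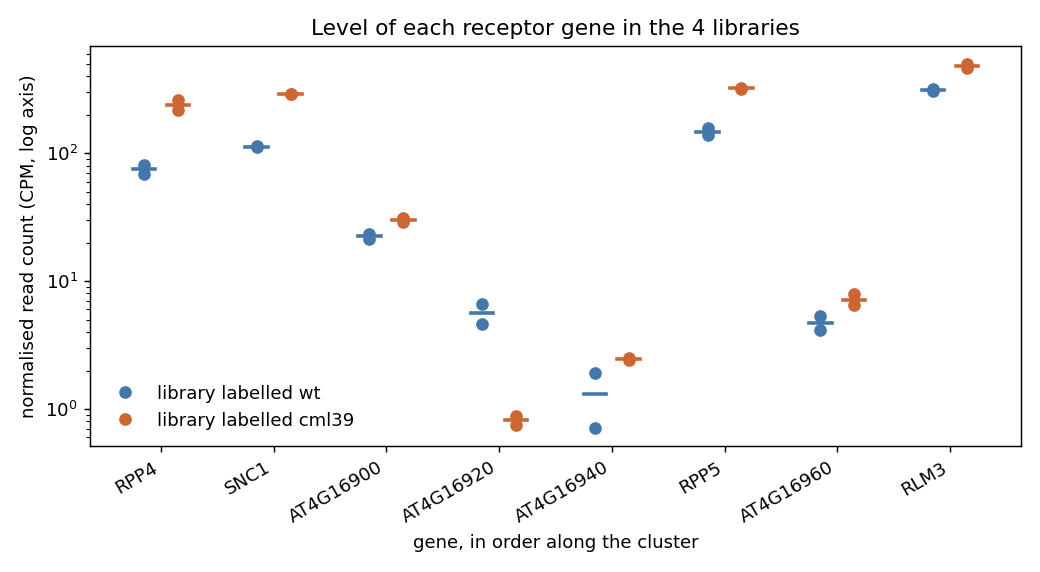
Normalised read count (CPM, log axis) of the 8 receptor genes in order along the cluster, with 1 point per library and a bar at the mean of the 2 libraries of a group. SNC1 moves from 114 and 111 CPM to 292 and 289, and AT4G16920 alone moves down, from 4.65 and 6.65 to 0.755 and 0.875.

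Of the 8 members, 7 had both cml39 libraries above both wt libraries and 1 had both below, beside 74% of all tested genes whose groups did not overlap, 36% upwards and 38% downwards. Past an adjusted p of 0.05 in edgeR's quasi-likelihood fit over all 19834 tested genes were 5 members upwards and 1 downwards, beside 19.3% and 21.6% of all tested genes, and 40.9% in either direction (8107 genes, and 3899 without wt 1). The split of all tested genes, 3822 higher and 4285 lower, was 2704 and 5403 with upper quartile scaling. These counts are read no further, since the members were picked on this comparison. The median log2 difference of the members was 0.78, and that of all tested genes was -0.0052. With upper quartile scaling, which shifts the median of all genes by -0.148, the median of the members was 0.63, and it was 0.51 without wt 1 and 1.01 without wt 2. The signs of all 8 were kept in 12 of 12 alternative fits, but AT4G16900 no longer passed with upper quartile scaling, with DESeq2, with a replicate block, without wt 1, without wt 2 and without cml39 2. AT4G16960 passed only without cml39 2 and with the replicate numbers crossed.

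The authors' deposited table of the same comparison had the same 4 members furthest from 0, on the authors' own estimate. The log2 change in the authors' deposited table was 1.53 ± 0.37 (SE) for RPP4, 1.303 ± 0.29 for SNC1, 1.06 ± 0.31 for RPP5 and -2.14 ± 0.51 for AT4G16920. For RLM3 it was 0.61 ± 0.23 in the authors' deposited table. In the authors' deposited table, 4 of the 8 members were under an adjusted p of 0.05, 3 of them upwards, beside 16% of the genes with an adjusted p there in either direction and 7.23% upwards. These counts too are read no further, since the members were picked on this comparison and the deposited estimates are not independent of it.

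Levels were compared between genes per length, as RPKM, the CPM divided by the annotated exon length in kilobases. In wt the order was RLM3 (75.9 ± 2.43 RPKM, SD, n = 2), RPP5 (25.4 ± 2.44), SNC1 (22.0 ± 0.37), RPP4 (18.6 ± 2.24) and AT4G16900 (5.97 ± 0.37). AT4G16960 (1.54 ± 0.27 RPKM), AT4G16920 (0.993 ± 0.248) and AT4G16940 (0.235 ± 0.152) closed the order. RPP5 at 23.7 and 27.2 RPKM, SNC1 at 22.2 and 21.7 and RPP4 at 17.0 and 20.2 followed one another without overlap in wt, with gaps smaller than the spread within RPP5 or RPP4.

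In cml39 the order per length was RLM3 (117 ± 5.28 RPKM, SD, n = 2), RPP4 (59.5 ± 7.94), SNC1 (56.8 ± 0.34) and RPP5 (55.5 ± 0.56). The libraries of RPP4, at 65.1 and 53.9 RPKM, spanned those of SNC1 (57.1 and 56.6) and RPP5 (55.1 and 55.8), so RPP4 could not be set apart from either. AT4G16900 (8.01 ± 0.44 RPKM), AT4G16960 (2.35 ± 0.33), AT4G16940 (0.441 ± 0.013) and AT4G16920 (0.143 ± 0.015) followed. AT4G16920 and AT4G16940 had traded places at the bottom.

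Summed over the 8 genes, the level per length was 145.2 and 156.2 RPKM in wt and 301.4 and 298.2 in cml39. RLM3 made up 50.4% ± 0.99 of that sum in wt and 39.0% ± 2.06 in cml39 (SD, n = 2). RPP4 went from 12.3% ± 0.85 to 19.8% ± 2.497, and SNC1 from 14.6% ± 1.001 to 19.0% ± 0.03. RPP5 took 16.9% ± 0.75 and 18.5% ± 0.33. RLM3 thus held the largest part of the sum in both groups, and a smaller part in cml39. AT4G16920 made up 0.656% of the sum in wt and 0.0478% in cml39.

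The receptors are closely related. Global alignment with the substitution matrix BLOSUM62 was used, with no penalty for gaps at the ends. Identity is the share of aligned residues, gaps and unaligned ends left out, and so is not an identity over whole proteins. The 21 pairs without RLM3 gave 60.5% to 92.0%, with a median of 71.0%, and the 7 pairs with RLM3 gave 41.4% to 45.1%. With the matrix BLOSUM80 the pairs with RLM3 gave 48.7% to 52.8%. RPP4 and SNC1 went from 67.7% with BLOSUM62 to 79.5% with BLOSUM80. AT4G16940 and AT4G16960 were the nearest pair at 92.0% of 955 aligned residues, or 87.8% of the length of the shorter protein. AT4G16920, the gene that was lower in cml39, was 87.4% identical to RPP5 and 86.0% to RPP4, both of which were higher there. SNC1 was nearest to RPP5, at 85.2%. A P-loop, the nucleotide-binding motif of NB-ARC domains, was matched by 1 stretch in each of the 7 and by 2 in RLM3. A simple leucine pattern of repeats was matched by 4 to 10 stretches in the 7 and by 0 in RLM3.

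**Figure D2:**
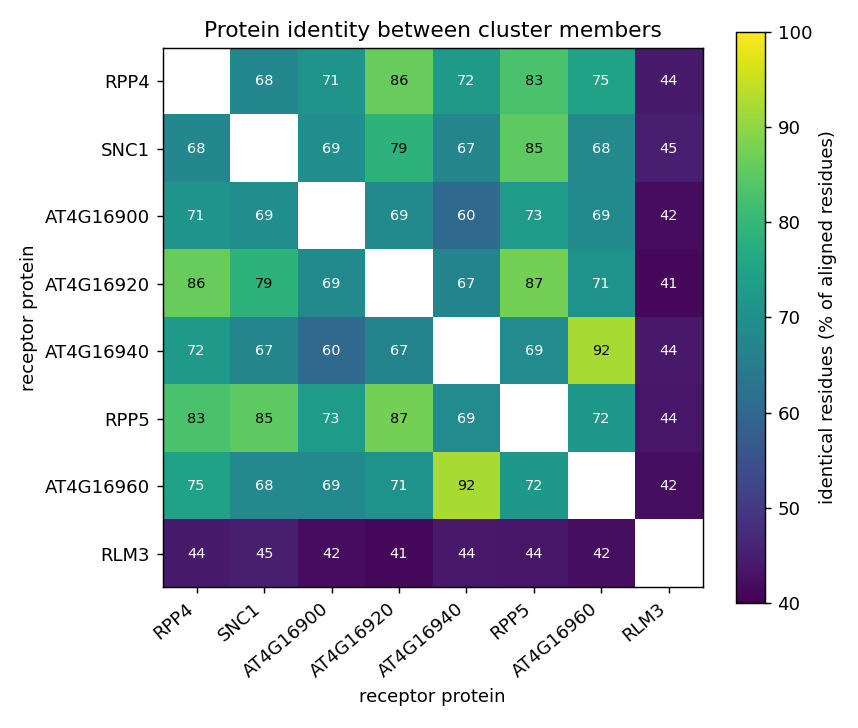
Identity of aligned residues (%) for each pair of the 8 receptor proteins, with both axes in order along the cluster. RLM3 stands apart at 41.4% to 45.1%, while AT4G16940 and AT4G16960 share 92.0% and AT4G16920 and RPP5 share 87.4%.

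Because of this likeness, reads can fall on more than 1 member. Of the exonic 50-base words of each gene, 45.1% in RPP5, 56.7% in AT4G16960, 39.4% in AT4G16920, 29.8% in AT4G16940, 29.1% in RPP4, 21.2% in SNC1, 10.6% in AT4G16900 and 0% in RLM3 also stood elsewhere in the genome. AT4G16960 shared 55.4% of its words with AT4G16940, and AT4G16920 shared 27.0% with RPP5. How reads with several matches were counted is not given in the sources used here, so the split between these genes is uncertain, least so for RLM3. The part of shared reads in the difference of AT4G16920 was not tested. AT4G16920 and RPP5 also overlap annotated genes on the opposite strand, and the strand setting of the counting is not given in the sources used here.

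Between and around the receptors, other genes moved less evenly. Inside the cluster lie 14 other annotated genes of the count table, of which 8 had 0 counts in every library and 6 were tested. Of these 6, 2 rose and 0 fell, with a median log2 difference of 0.87, beside 19.3% and 21.6% of all tested genes. AT4G16880, described as a leucine-rich repeat family protein, lies 145 bases upstream of RPP4 on the same strand. It had 250 and 160 counts in wt and 777 and 879 in cml39, and stood at 9.38 and 7.65 CPM against 39.1 and 48.1. The rise of 2.35 ± 0.17 on the log2 scale (SE, edgeR adjusted p = 9.33e-05), or 5.10-fold, was larger than that of any receptor of the cluster. Of its 50-base words, 11.1% stood elsewhere in the genome.

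AT4G16957, between RPP5 and AT4G16960, rose from 7.20 and 6.41 CPM to 11.4 and 11.98, by 0.78 ± 0.17 on the log2 scale (SE, edgeR adjusted p = 0.00999, and 0.0749 without wt 2). The other 4 inside did not pass. They were AT4G16892 (log2 difference 0.96), the protein kinase gene AT4G16970 (-0.63), the arabinogalactan protein gene AT4G16980 (0.11) and AT4G16983 (1.62). AT4G16970 passed without cml39 2, at -0.93. The nearest tested genes on either side were AT4G16857, itself annotated as a TIR-NBS-LRR gene, and AT4G17000. AT4G16857 had a log2 difference of 0.12 ± 0.26 (SE, edgeR adjusted p = 0.747), whose sign was not kept with upper quartile scaling or without cml39 2. The same held for AT4G16980. AT4G17000, 1307 bases beyond RLM3, had 220 and 116 counts in wt and 15 and 12 in cml39, and was 9.72-fold lower (log2 change -3.28 ± 0.34, edgeR adjusted p = 0.000382). Over all 34 neighbours, of which 23 were tested, 5 rose and 2 fell, with a median of 0.12. Of all tested genes, 19.3% rose and 21.6% fell. Without wt 1 or without wt 2, 3 rose and 1 fell, and with upper quartile scaling 4 rose and 3 fell, with a median of -0.03.

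**Figure D3:**
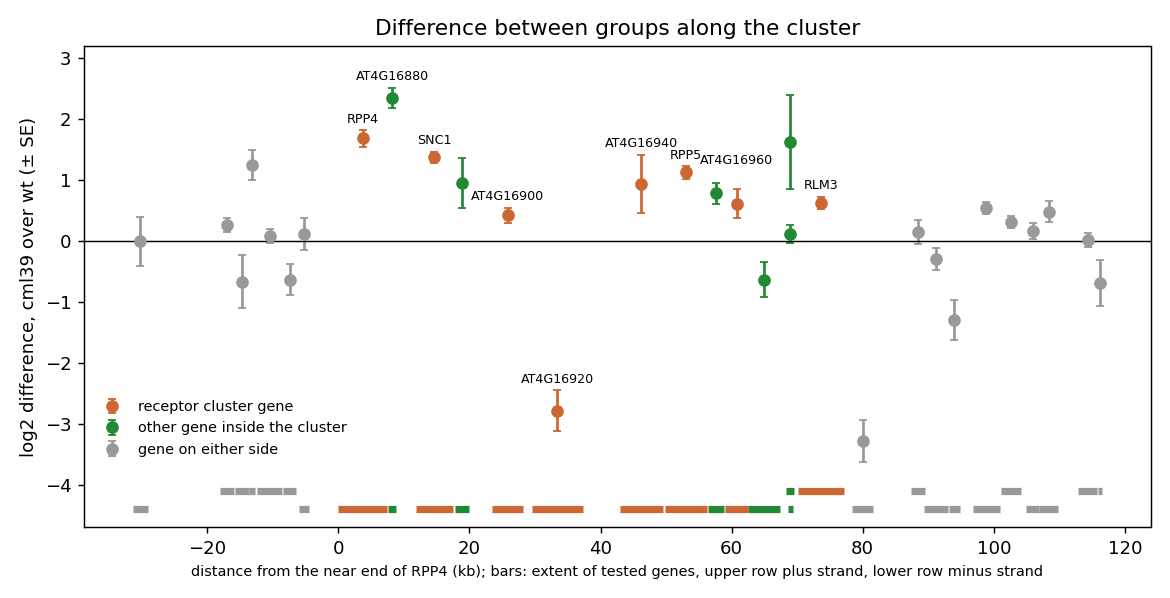
Log2 difference of cml39 over wt (± SE) for each tested gene, against distance in kb from the end of RPP4 that is nearest to the start of the chromosome, with bars for gene extents. RPP4, SNC1 and RPP5 lie at 1.68, 1.37 and 1.12, AT4G16880 above them at 2.35, AT4G16920 at -2.78 and AT4G17000 at -3.28.

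Genes of the same class elsewhere in the genome were used for comparison. Of 84 other genes described as TIR-NBS-LRR class, 66 were tested, 29 rose (43.9%), 6 fell (9.09%) and 31 did not pass, with a median log2 difference of 0.39. Over all tested genes, 19.3% rose and 21.6% fell. Without wt 1, 22 rose and 1 fell, without wt 2, 24 rose and 1 fell, and with upper quartile scaling 26 rose and 9 fell. RPS6, a receptor gene for a bacterial effector, had 43.1 ± 1.69 CPM (SD, n = 2) in wt and 123 ± 17.7 in cml39, a rise of 1.52 ± 0.13 in log2 (SE, edgeR adjusted p = 0.000171). WRR4, a receptor gene for resistance to white rust, rose by 1.60 ± 0.16 (edgeR adjusted p = 0.000297), AT1G31540 by 1.49 ± 0.14 and AT5G38850 by 1.202 ± 0.12. Of the 66 genes, 7 had a larger log2 difference than RPP4, 12 a larger one than SNC1, 16 than RPP5, 27 than RLM3 and 65 than AT4G16920. A rise in level was thus measured in many TIR-NBS-LRR genes outside the cluster.

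By level, RLM3, RPP5, SNC1 and RPP4 ranked high when set among the other TIR-NBS-LRR genes. The 92 genes ranked were the 8 members and the 84 other genes described as TIR-NBS-LRR class. RLM3, described as TIR-NBS class, was ranked as a member, and other genes described only as TIR-NBS class were not ranked. Per length, RLM3 ranked first in both groups. RPP4 went from rank 6 in wt to 2 in cml39, SNC1 from 5 to 3 and RPP5 from 3 to 4. AT4G16900 went from rank 18 to 26, AT4G16960 from 49 to 47, AT4G16940 from 70 to 62 and AT4G16920 from 56 to 72. The 84 other genes had a median of 1.65 RPKM in wt and 1.797 in cml39, and a highest value of 45.8 and 43.1.

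**Figure D4:**
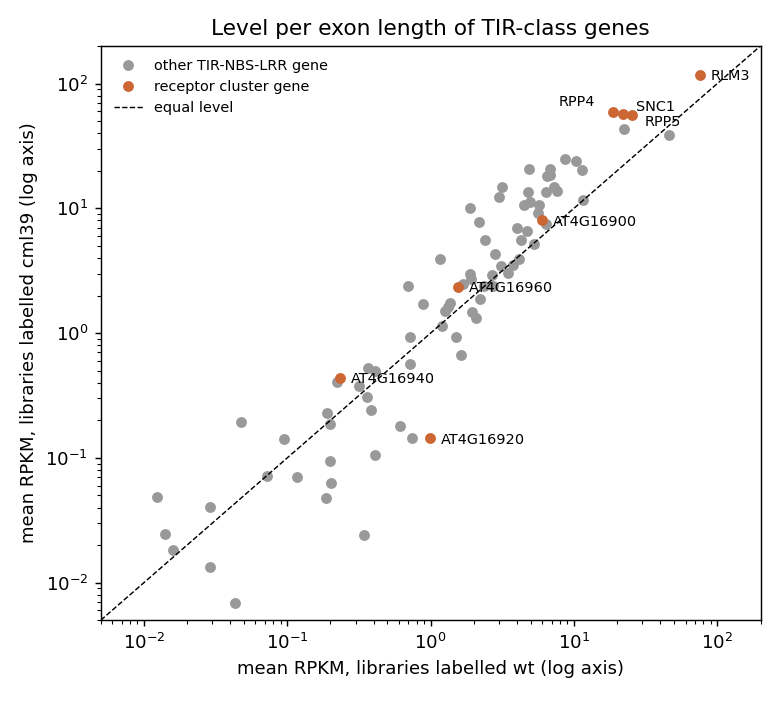
Mean RPKM in the libraries labelled cml39 against those labelled wt (both axes log) for the 8 members and the 78 other TIR-NBS-LRR genes with reads in both groups, with a dashed line at equal level. RPP4, SNC1 and RPP5 lie above the line at 59.5, 56.8 and 55.5 RPKM, higher than any other gene of the class outside the cluster, and AT4G16920 lies below it.

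The pathway around the receptors was followed through lists of genes. EDS1 and its partners with helper receptors and chaperones, which carry the signal of TIR receptors, gave 8 rises and 2 falls among 14 tested genes, with a median of 0.80. The shares over all tested genes were 19.3% for rises and 21.6% for falls. Without wt 1, 6 rose and none fell, and without wt 2, 8 rose and none fell. ADR1, a helper receptor, had 9.04 ± 1.49 CPM (SD, n = 2) in wt and 37.0 ± 6.48 in cml39, a rise of 2.03 ± 0.18 in log2 (SE, edgeR adjusted p = 0.000203). Its relative ADR1-L1 rose by 0.86 ± 0.12, SGT1A, a co-chaperone needed to keep receptors folded, by 1.25 ± 0.16, and AT5G66900, described as a CC-NBS-LRR protein, by 1.03 ± 0.16. EDS1 and its partners are named here after their values were seen. EDS1 fell from 24.9 and 23.2 CPM to 18.2 and 14.8 (log2 change -0.54 ± 0.15, edgeR adjusted p = 0.0217), a call lost without wt 1, wt 2 or cml39 2 (adjusted p = 0.164, 0.0768 and 0.0566). PAD4 rose by 0.80 ± 0.18 (edgeR adjusted p = 0.00962, and 0.0880 without wt 1) and SAG101 by 0.96 ± 0.18.

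Named resistance genes elsewhere, 15 of which are also among the 84 above, gave 17 rises and 0 falls among 28 tested genes, with a median of 0.59. Over all tested genes the shares were 19.3% and 21.6%. Besides RPS6 and WRR4 these included LAZ5, which rose by 1.24 ± 0.12 on the log2 scale (SE, edgeR adjusted p = 0.000324), and RPM1, a coiled-coil receptor gene for bacterial effectors, which rose by 1.33 ± 0.14 (edgeR adjusted p = 0.000388). Without wt 1, 10 of the list changed.

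Genes known to be required for SNC1 output, found as modifiers of snc1 or as partners of those, mostly did not pass. Of 16 tested, 3 rose and 1 fell, with a median of 0.19, beside 19.3% and 21.6% of all tested genes. With upper quartile scaling none rose and 3 fell, so the balance rests on the scaling. MOS6, an importin that carries proteins into the nucleus, fell by 0.62 on the log2 scale (edgeR adjusted p = 0.00883, and 0.100 without wt 1). MOS4 (0.41 ± 0.13), PRL1 (0.34 ± 0.11) and CDC5 (0.30 ± 0.10), parts of 1 spliceosome-associated complex, rose, but none of these 3 passed with upper quartile scaling (adjusted p = 0.143, 0.197 and 0.247). Without wt 1 none of the 4 passed, and without wt 2 1 gene of the list passed.

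Among 12 tested repressors of SNC1 or of related defence, 5 rose and 1 fell, with a median of 0.21, beside 19.3% and 21.6% of all tested genes. With upper quartile scaling 3 of the list rose and 2 fell. The fall was that of CHR1, known as DDM1, a chromatin remodeller that keeps DNA methylated, from 10.9 ± 1.11 CPM (SD, n = 2) to 3.54 ± 0.17 (log2 change -1.62 ± 0.20, SE, edgeR adjusted p = 0.000798). BAP1, a membrane-binding partner of BON1, had 47 and 68 counts in wt and 225 and 422 in cml39, and rose by 2.80 ± 0.41 on the log2 scale (edgeR adjusted p = 0.00154). BON1 itself had 0 counts in all 4 libraries and overlaps another annotated gene. BIR1, a receptor-like kinase, rose by 0.93 ± 0.21 (edgeR adjusted p = 0.0100, and 0.0692 without wt 1), and SIZ1, a SUMO ligase, by 0.43 ± 0.10 (edgeR adjusted p = 0.0109, 0.106 without wt 1 and 0.0508 without wt 2). Without wt 1, 1 gene of the list rose and 1 fell.

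Among genes of salicylic acid and defence output, 3 of 18 tested rose and 4 fell, with a median of -0.19. Of all tested genes, 19.3% rose and 21.6% fell. Genes were named by lowest p, so 3 of the falls and 1 of the rises are detailed. Without wt 1, none rose and 4 fell, and with upper quartile scaling 2 rose and 4 fell. WRKY54, a WRKY factor of this pathway, fell from 94 and 48 counts to 4 and 0 (log2 change -4.73 ± 0.74, SE, edgeR adjusted p = 0.00213). PR5, a marker of salicylic acid responses, fell from 54 and 38 counts to 3 and 0, a 24.6-fold ratio with a 95% counting interval of 8.16 to 121. EDS5, the chloroplast exporter of the precursor of salicylic acid, fell from 97 and 74 counts to 13 and 19 (log2 change -2.08 ± 0.36, edgeR adjusted p = 0.00330). NPR1, a receptor of salicylic acid, rose by 0.65 ± 0.12 (edgeR adjusted p = 0.00476, and 0.0582 without wt 1). PR1, the classical marker, had 0, 1, 0 and 3 counts in wt 1, wt 2, cml39 1 and cml39 2, too few to test. A library with 0 counts of a gene could still have held up to 0.113 to 0.164 CPM, at 3 counts.

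**Figure D5:**
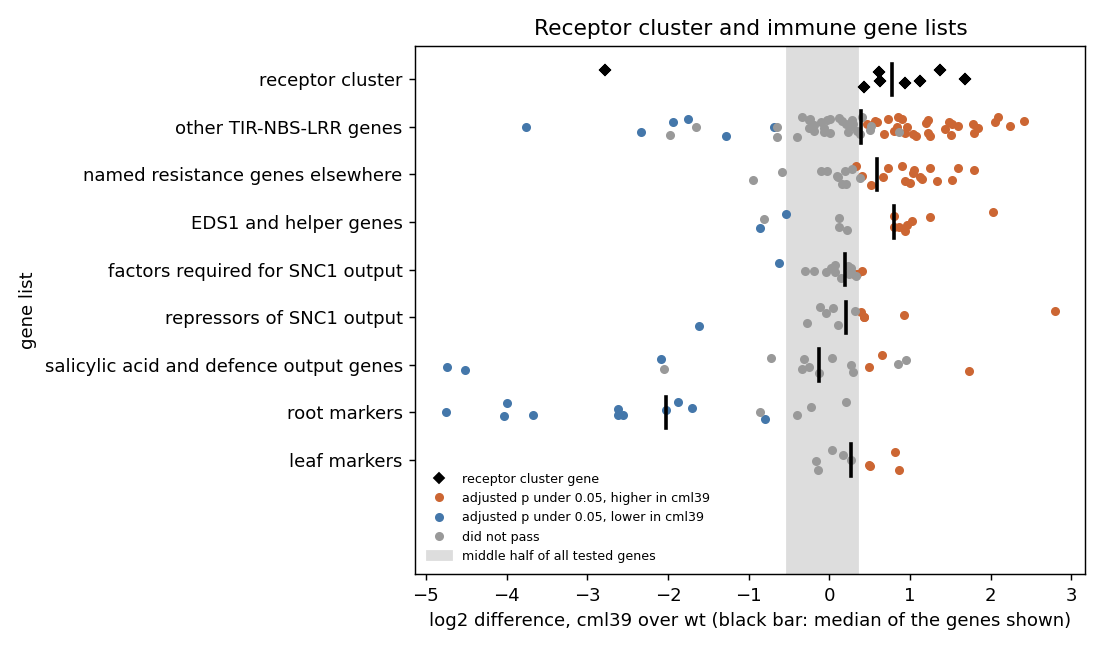
Log2 difference of cml39 over wt for each tested gene of the cluster and of each list, with a black bar at the median of the genes shown and a grey band between the quartiles of all tested genes. ALD1, with 34 and 15 counts in wt and 0 in both cml39 libraries, is not drawn. The members have a median of 0.78 and the root markers lie far to the left, at -2.02.

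Markers of organs differed between the same libraries. Of 15 root markers 11 fell and 0 rose, with a median log2 difference of -2.02. Their summed level was 4685 and 4146 CPM in wt against 1089 and 1352 in cml39. Over all tested genes, 21.6% fell and 19.3% rose. Most of the root marker sum was 1 gene, PYK10, at 4293 and 3748.5 CPM in wt and 973 and 1210 in cml39. Of 9 leaf markers 4 rose and 0 fell, with a median of 0.27, and their sum was 47701 and 49781 CPM in wt against 72171 and 67441 in cml39. Of 3 guard cell markers 1 rose and 0 fell (2 changed without cml39 2, the 1 that rose did not pass without wt 1, and with upper quartile scaling none rose and 1 fell), with sums of 35.7 and 37.9 CPM in wt and 38.0 and 37.9 in cml39. None of the root, leaf or guard cell markers was at 0 in every library of a group. The 3 seed markers did not pass the filter on low counts (all 3 passed the test without cml39 1), with sums of 0.188 and 0 CPM in wt and 0.101 in cml39 1, but 130.3 in cml39 2, and 2 of the 3 had 0 counts in wt. The part of these shifts in the levels of the receptors was not tested. The seed transcripts were in cml39 2. Without that library the log2 differences of RPP4, SNC1, RPP5, RLM3 and AT4G16920 were 1.82, 1.38, 1.12, 0.58 and -2.88. Those of AT4G16900, AT4G16940 and AT4G16960 were 0.38, 0.92 and 0.76. The root marker sums were low in both cml39 libraries, so leaving out cml39 2 does not address that shift.

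The 5 genes whose profile over the 4 libraries was most like the mean profile of the members, by Euclidean distance of centred log2 CPM, were AT5G09315 (0.0136), AT5G44090 (0.0255), MCCA (0.0410), AT3G51730 (0.0439) and AT4G13630 (0.0499). AT5G44090 is described as an EF-hand calcium-binding protein and MCCA as a subunit of methylcrotonyl-CoA carboxylase. The members themselves lay farther from their mean than these 5 genes, from 0.204 (AT4G16900) to 3.17 (AT4G16920). RPP4 lay at 1.17, SNC1 at 0.89 and RPP5 at 0.61. The likeness is thus to the mean and not to each receptor, and it rests on 4 libraries.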

How the data were processed

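Gene counts of 4 strand-specific mRNA libraries were used, as deposited: raw counts per gene, checked as whole numbers. Per the submitters' processing notes CASAVA 1.8, FastQC, STAR 2.5.2b and DESeq2 1.14.1 were used with TAIR10, with no roles given. How strand was handled and which annotation was counted are not given in the sources used here. In the authors' deposited table, per the file headers, the signal column is a mean normalised count over the libraries of their fit, the fold change and its standard error are on the log2 scale, the score is the Wald statistic, and the p-values, raw and adjusted, are the authors' own. That mean is not the mean of these 4 libraries, so the fit may have held others, which were not analysed here.

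Counts were fitted in R 4.3.3 with edgeR 4.0.16 (filterByExpr, TMM factors of 1.11 and 1.08 in wt, 0.905 and 0.923 in cml39, quasi-likelihood F test, two-sided, Benjamini-Hochberg over 19834 genes, threshold 0.05); the biological coefficient of variation was 0.129. CPM is given with the SD of 2 libraries, and RPKM divides CPM by reference exon length. A ratio with 1 to 3 counts in a group has an exact binomial 95% interval. Symbols, positions and sequences come from TAIR10.1, which holds 32548 of the 32833 identifiers. Proteins were translated from it and aligned with Biopython 1.88 (gap opening 11, extension 1, end gaps free).

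The members and the lists were chosen with earlier results of these data known. Named besides all members and CML39 were up to 4 genes of each list and 4 other TIR-NBS-LRR genes by lowest p, tested genes inside the cluster and the nearest on each side, and the 5 genes most alike. In simulated data of 19560 genes, 74 of 94 genes changed by 1 on the log2 scale and 98 of 99 changed by 2 were recovered, with 9 false calls. Far fewer genes were changed there than the 8107 of 19834 that passed here. Recovery and false calls at the larger share were not measured. The alternatives used upper quartile scaling, DESeq2 size factors, no filter, 1 CPM in 2 libraries, DESeq2 1.42.0, limma-voom (limma 3.58.1), a replicate block, and each library left out. The block with crossed numbers was added after seeing the data.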

Additional observations from a re-analysis of the deposited data

How the results depend on the processing

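Each group had 2 libraries, so every SD rests on 2 values and 1 library can decide a call. Leaving out 1 library at a time, the count of genes past the threshold ranged from 3899 to 8657 for all genes, 4 to 8 for the neighbours, 23 to 37 for other TIR-NBS-LRR genes, 6 to 9 for EDS1 and helpers, 0 to 4 for factors required for SNC1, 2 to 7 for repressors, 4 to 9 for defence output, 10 to 17 for named resistance genes, 9 to 13 for root, 3 to 4 for leaf, 0 to 2 for guard cell and 0 to 3 for seed markers. Members past it numbered 5 to 6, and their median log2 difference was 0.51 without wt 1 and 1.01 without wt 2, against 0.63 with upper quartile scaling. Factors required for SNC1 numbered 2 with DESeq2 and 1 with the replicate block, leaf markers 2 with the block, guard cell markers 2 with no filter, limma-voom or crossed numbers, and seed markers 3 with no filter, which tests more genes. With 75-base words the median share of a member's exons found elsewhere was 22.4%. Apart from settings with fewer libraries or more genes, the cause was not tested. The libraries share only a replicate number (correlation of deviations -0.118): with that block, pairing cml39 1 with wt 1, 6744 genes passed, and with crossed numbers 8696, against 8107. Of 44 named genes that are not members, 27 kept direction and side of the threshold in every alternative run. The direction turned for AT4G16857 (-0.028 with upper quartile scaling, -0.072 to 0.298 with a library left out) and AT4G16980 (-0.033, and -0.116 to 0.320), neither of which passed in any of these fits. At this depth AT4G16940, with 19 to 48 counts, could not be resolved.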
